A study of Mus musculus with 2 samples.

Results

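The genes described here are the translation initiation and elongation factors of the mouse 1-cell embryo, together with the release factors and the cytoplasmic and nuclear poly(A)-binding proteins and their partners. They were taken by symbol: the eIF1 to eIF6 series, the eEF1 and eEF2 series, Etf1, Gspt1, Gspt2, the Pabpc and Pabpn genes, and the Paip1 and Paip2 genes. This gave 71 of the 11262 genes analysed. A family name brings in some genes that are not factors themselves, such as the kinases of eIF2, the kinase of eEF2 and the methyltransferases of the elongation factors, and these are kept and described by what they do.

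The second polar body (PB2) is the small cell that the fertilized egg extrudes when it completes meiosis, and it was compared with the zygote it came from. There was 1 library of each, both from untreated embryos of the strain labelled C57BL/6. By the methods, the mothers were superovulated with gonadotropins and mated, and embryos were taken from the oviduct at the 1-cell stage. The cells around the embryos were removed with hyaluronidase, and the embryos were cultured. Late in that stage the zona pellucida was dissolved with acid Tyrode's solution, and trypsin and pipetting split PB2 from the rest of the embryo. The poly(A) RNA of pooled cells was amplified as full-length cDNA with a single-cell kit, and the authors deposited TPM, a transcript's share of the library adjusted for gene length.

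A eukaryotic ribosome starts on an mRNA when eIF2 brings the initiator tRNA to the small subunit, eIF4F opens the capped end, eIF3 holds the assembly together, and eIF1, eIF1A and eIF5 choose the start codon. eEF1A then delivers each aminoacyl-tRNA, eEF2 moves the ribosome by a codon, and eRF1 with eRF3 ends the chain at a stop codon. An egg and a zygote make protein from stored maternal mRNA, so the length of the poly(A) tail, the proteins bound to it and the phosphorylation of eIF2, eEF2 and the cap-binding machinery are the known points of control at this stage.

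Because each condition is a single library, no spread between samples is known, no test was run, and no difference below can be said to exceed replicate error. Depth is unknown as well, since TPM holds no read numbers. Over the 10645 genes with at least 1 TPM in either library, the log2 ratio, defined as log2((PB2 TPM + 1)/(zygote TPM + 1)), had a median of 0.21. This shift toward PB2 was not even across levels. By TPM in the higher library, the median was 0.25 at 1 to 10 TPM, 0.24 at 10 to 100 and 0.02 at 100 or more. Levels and log2 ratios below include the shift unless it is said to be subtracted. All 10 markers of the oocyte and egg were present, at 90.9 to 13021.0 TPM in the zygote and 99.5 to 10495.6 TPM in PB2. Of the markers of the cumulus and granulosa cells that surround the egg, 4 of 10 were in the table, with Cyp19a1, the aromatase gene, at 72.2 TPM in the zygote against 70.9 in PB2 and the other 3 below 5 TPM in both, and their part in the results was not tested. Prm2, a sperm protamine, had 19.8 and 22.0 TPM, the oviduct epithelium marker Epcam had 2.9 and 4.4 TPM, and these were the only genes of those 2 lists in the table.

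Most of the translation factors were within 2-fold between the libraries, and those past it toward PB2 included 3 of the 4 kinases of eIF2, Eef2 and its kinase, Eif4e3 and Pabpc1l. Of the 71 genes, 57 were within 2-fold, 9 exceeded 2-fold in favor of PB2 and 5 in favor of the zygote, where a gene counts as 2-fold apart at a log2 ratio of 1 or more in size. The 9 are 12.7% of the members, beside 18.9% of all genes compared, and the 5 are 7.04%, beside 8.09% of all genes. The members' median log2 ratio was 0.11, below the median of all genes, and subtracting the latter gives -0.10. As deposited, 39 members lay above 0, 31 below 0 and 1 at 0, beside 6298, 4262 and 85 of the 10645 genes compared. The middle of the distribution was narrower than that of all genes, with quartiles of -0.52 and 0.59 for the factors and of -0.38 and 0.82 for all genes compared.

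Added up, the 71 transcripts held 10119.2 TPM in the zygote against 9792.7 in PB2, which is 1.01% and 0.979% of a full library and a ratio of 0.968. The summed ratio of all 11262 genes was almost the same, at 0.969. The order of the genes by level was much the same in both, with a Spearman rank correlation of 0.948 across the 71 genes, given as a description because the genes of a library share its depth and preparation. A few genes made up most of this sum. The 7 highest in the zygote, Eif2b1, Paip1, Eif1b, Eif5a, Eif1, Pabpn1l and Eif5, held 57.4% of the members' TPM there. The 7 highest in PB2 held 55.3%, and they were the same genes except that Eif2s2 stood in the place of Pabpn1l. In the zygote 22 members had at least 100 TPM, 32 had 10 to 100, 16 had 1 to 10, and Pabpc1 alone was below 1 TPM. The numbers in PB2 were 23, 32, 13 and 3.

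**Figure D1:**
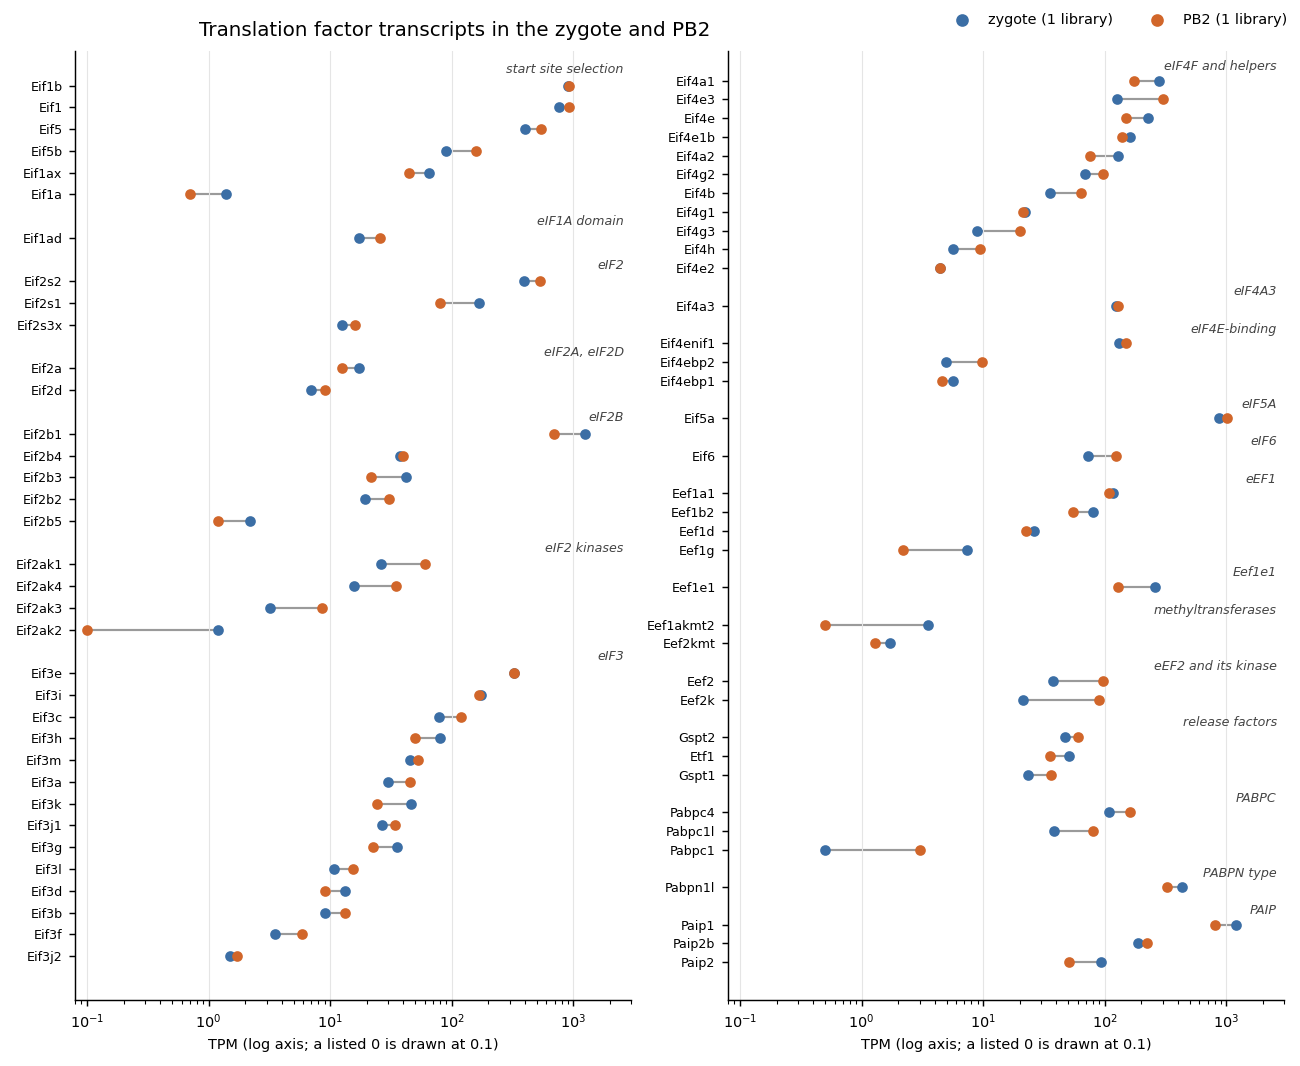
TPM of each of the 71 genes in the zygote (blue) and in PB2 (orange), 1 library each, on a log axis and grouped by role, with a line joining the 2 values of a gene. The levels span from below 1 TPM to 1238.6 TPM in the zygote (Eif2b1), and most lines are short beside that span. Eif2ak2 is listed at 0 in PB2 and is drawn at 0.1.

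The factors that choose the start codon were among the most abundant members in both libraries. Eif1 and Eif1b encode very similar forms of eIF1, which keeps the scanning ribosome from stopping at a wrong codon. Eif1 had 767.2 TPM in the zygote and 921.2 in PB2, and Eif1b had 901.2 and 914.9 TPM. The pair therefore stood close to even, with Eif1 at 46.0% of their sum in the zygote and 50.2% in PB2. Eif5, the GTPase activator of eIF2, had 399.4 TPM in the zygote against 539.7 in PB2. Eif5b, the GTPase that joins the ribosomal subunits, had 88.9 and 157.1 TPM, a log2 ratio of 0.81 and the furthest of this group. Eif1ax, which encodes eIF1A, lay the other way with 65.3 TPM in the zygote against 44.8 in PB2. Its relative Eif1a was close to the floor of the table at 1.4 and 0.7 TPM. None of these 6 genes was 2-fold apart on the log2 scale used. Eif1ad, whose product shares a domain with eIF1A, had 17.1 TPM in the zygote and 25.9 in PB2.

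The 3 subunits of eIF2, the factor that carries the initiator tRNA, did not move together. Eif2s1 encodes the alpha subunit, on which the stress kinases act, and it was down from 167.8 TPM (zygote) to 80.3 TPM (PB2), a log2 ratio of -1.05. Eif2s2, the beta subunit, had 396.2 TPM in the zygote against 531.7 in PB2. Eif2s3x, the X-linked copy of the GTP-binding gamma subunit, had 12.5 and 16.1 TPM. The alpha subunit was thus the only one of the 3 that was lower in PB2 as deposited, although Eif2s3x also lay below 0 with the length trend removed. The beta transcript exceeded the gamma transcript 31.7 times in the zygote and 33.0 times in PB2. Eif2a and Eif2d, which can bring tRNA to the ribosome without eIF2, had 17.1 and 6.9 TPM in the zygote and 12.5 and 9.1 TPM in PB2.

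eIF2B recharges eIF2 with GTP and is built from the products of Eif2b1 to Eif2b5. The alpha subunit transcript Eif2b1 was the most abundant of all members in the zygote at 1238.6 TPM, and it had 692.8 TPM in PB2, a log2 ratio of -0.84. It made up 92.4% of the summed eIF2B transcripts in the zygote and 88.2% in PB2, although the protein complex holds all subunits in equal number. Eif2b5, which encodes the catalytic epsilon subunit, was the lowest at 2.2 TPM in the zygote against 1.2 in PB2. Between them, Eif2b3 had 42.2 and 21.7 TPM, Eif2b4 had 37.4 and 39.4 TPM, and Eif2b2 had 19.5 and 30.7 TPM. No eIF2B gene was 2-fold apart as deposited, and 3 of the 5 lay below 0, joined by Eif2b4 after centring on the median of all genes and by Eif2b2 with the GC trend removed. Eif2b1 and Eif2b3 passed 2-fold toward the zygote after centring, and Eif2b1 and Eif2b5 with the GC trend removed. The sum of the 5 was 1339.9 TPM in the zygote and 785.8 in PB2, a ratio of 0.586 that follows Eif2b1.

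The kinases that phosphorylate the alpha subunit of eIF2 and so slow initiation were the group with the most members past 2-fold. Eif2ak1 (HRI), which responds to a lack of heme, had 26.2 TPM in the zygote against 60.3 in PB2, a ratio of 2.30. Eif2ak4 (GCN2), the sensor of uncharged tRNA, had 15.6 and 34.5 TPM, a ratio of 2.21. Eif2ak3 (PERK), the sensor of unfolded protein in the endoplasmic reticulum, had 3.2 and 8.6 TPM, and rounding of the deposited values alone leaves its ratio between 2.63 and 2.75. These 3 kinases passed 2-fold toward PB2, while the double-stranded RNA sensor Eif2ak2 (PKR) had 1.2 TPM in the zygote and is listed at 0 in PB2, a level at which no ratio is given although the pseudocount puts it among the 5. The median log2 ratio of the 4 was 1.13. It was 0.92 relative to all genes, 0.83 with the trend on GC content removed and 0.79 with the trend on transcript length removed, so that its direction held while the 3 higher kinases no longer passed 2-fold under any of these settings. The median transcript of the 4 was 4419 bases long, longer than that of the members as a whole at 2554 bases.

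eIF3 is the large scaffold of the initiating ribosome, and it was the group with the most members and, as deposited, none past 2-fold. The 14 genes summed to 880.7 TPM in the zygote against 884.3 in PB2, a ratio of 1.00. Of these, 8 lay above 0 and 6 below, and their median log2 ratio of 0.16 became -0.05 when the median of all genes was subtracted. Within that even sum the subunits spread in both directions. The higher ones in PB2 were Eif3f (log2 ratio 0.62), Eif3c (0.59), Eif3a (0.59), Eif3b (0.51) and Eif3l (0.48). The lower ones were Eif3k (-0.90), Eif3h (-0.67), Eif3g (-0.63) and Eif3d (-0.52). These passed 2-fold toward the zygote with the GC trend removed, beside 11% of all genes, and Eif3k did so after centring as well. Eif3a, Eif3b and Eif3c encode the large subunits around which the complex is known to form, and all were above 0 as deposited, while Eif3b turned to -0.23 with the GC trend removed. Levels ranged from Eif3e, at 325.2 TPM in the zygote and 323.4 in PB2, to Eif3j2, at 1.5 and 1.7 TPM, a span of 217 times in the zygote and 190 times in PB2. Eif3e and Eif3i, the latter with 174.3 and 166.6 TPM, together carried most of the eIF3 transcripts. As deposited they were the steadiest of the abundant subunits, while with the GC trend removed their log2 ratios were 0.31 and -0.56. Eif3j1 and Eif3j2 are very similar genes, so how reads were shared between them is uncertain.

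**Figure D2:**
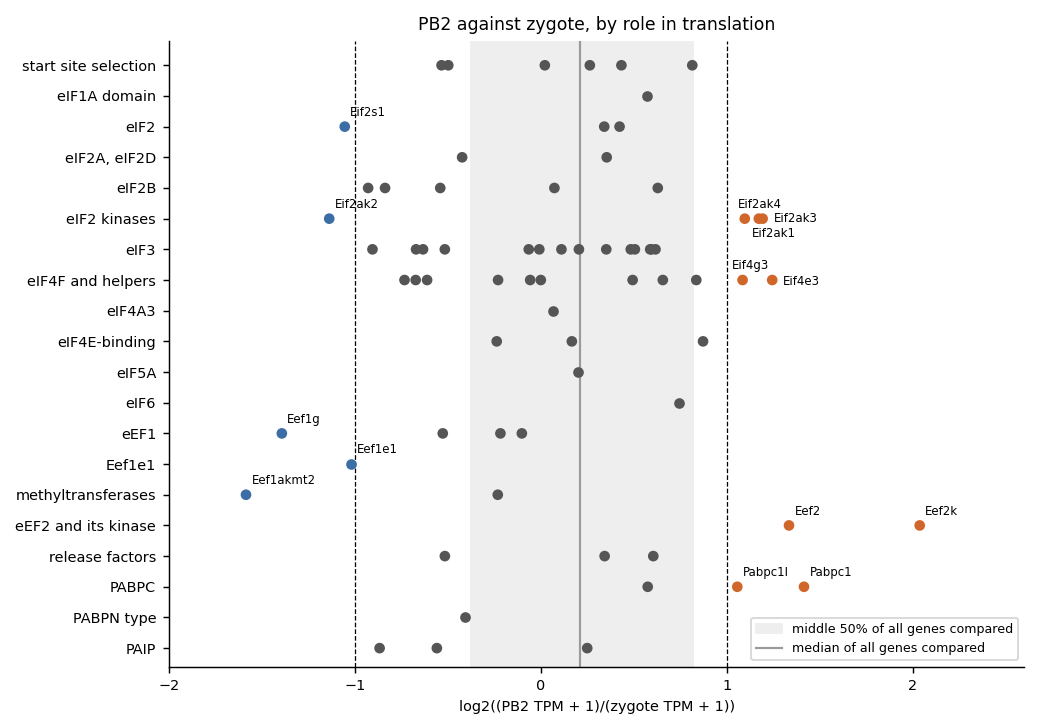
Log2 ratio of PB2 to zygote for the 71 genes (points), 1 row per role. Dashed lines mark 2-fold, orange and blue points are the 9 genes past it toward PB2 and the 5 past it toward the zygote, the grey band holds the middle 50% of all genes compared (-0.38 to 0.82), and the grey line is their median of 0.21. The eIF3 points stay inside the dashed lines, and Eef2k lies furthest to the right, at 2.04.

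The 11 genes of the cap-binding complex eIF4F and its helpers, Eif4b and Eif4h included, summed to 1066.4 TPM in the zygote against 1053.1 in PB2, while the cap-binding subunit was led by different genes. Eif4e, the standard cap-binding protein, had 228.0 TPM in the zygote against 148.9 in PB2. Eif4e3, a related cap-binding protein, had 126.2 TPM in the zygote and 300.3 in PB2, a ratio of 2.38. Eif4e1b, the form known from oocytes, had 161.3 and 137.4 TPM, and Eif4e2 had 4.4 TPM in both. Eif4e was therefore the leading gene of the 4 in the zygote, with 43.9% of their sum against 24.3% for Eif4e3, whereas in PB2 Eif4e3 led with 50.8% against 25.2% for Eif4e. The summed transcripts of the 4 differed far less, at 519.9 TPM in the zygote against 591.0 in PB2. Eif4e3 kept a log2 ratio above 1 when the GC trend was removed, at 1.30, and lay just short of it with the length trend removed, at 0.96.

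The sets of eIF4A and eIF4G genes kept their leading genes. The RNA helicase genes Eif4a1 and Eif4a2 were both lower in PB2, with 278.6 and 174.4 TPM for Eif4a1 and 127.3 and 76.2 TPM for Eif4a2, and Eif4a1 kept 68.6% of their sum in the zygote and 69.6% in PB2. The helicase cofactors lay the other way, except that Eif4h turned to -0.05 with the GC trend removed. Eif4b had 35.3 TPM in the zygote against 63.8 in PB2, and Eif4h had 5.6 and 9.4 TPM. Among the eIF4G scaffolds, Eif4g3 was up from 8.9 TPM (zygote) to 20.0 TPM (PB2), just past the 2-fold limit with a log2 ratio of 1.08, while Eif4g1 was level at 22.2 and 21.3 TPM. Eif4g1 thus stood well above Eif4g3 in the zygote and close to it in PB2. Eif4g2, whose product lacks the site for eIF4E, was the most abundant of the 3 at 68.6 and 97.0 TPM. Its share of the eIF4G sum was 68.8% in the zygote and 70.1% in PB2, while Eif4g3 moved from 8.9% to 14.5%. Eif4a3, a helicase of the exon junction complex rather than of initiation, had 123.2 and 129.2 TPM.

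The proteins that bind eIF4E and keep it from eIF4G were led by Eif4enif1 (4E-T), a repressor of stored mRNA in oocytes, at 131.9 TPM in the zygote and 148.2 in PB2. The mTOR-controlled repressors were far lower. Eif4ebp1 had 5.6 TPM in the zygote against 4.6 in PB2, and Eif4ebp2 had 4.9 and 9.8 TPM. The latter was the first gene outside the 2-fold limit on the PB2 side, with a log2 ratio of 0.87, followed by Eif4b with 0.84.

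Eif5a, whose product helps the ribosome through difficult peptide bonds and is the carrier of hypusine, was the most abundant member in PB2. It had 874.9 TPM in the zygote against 1006.4 in PB2. Eif6, which keeps the large ribosomal subunit from joining too early, had 72.9 and 122.5 TPM, a log2 ratio of 0.74. Both transcripts are rich in G and C, and with the GC trend removed their log2 ratios turned below 0, to -0.46 for Eif5a and -0.12 for Eif6.

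**Figure D3:**
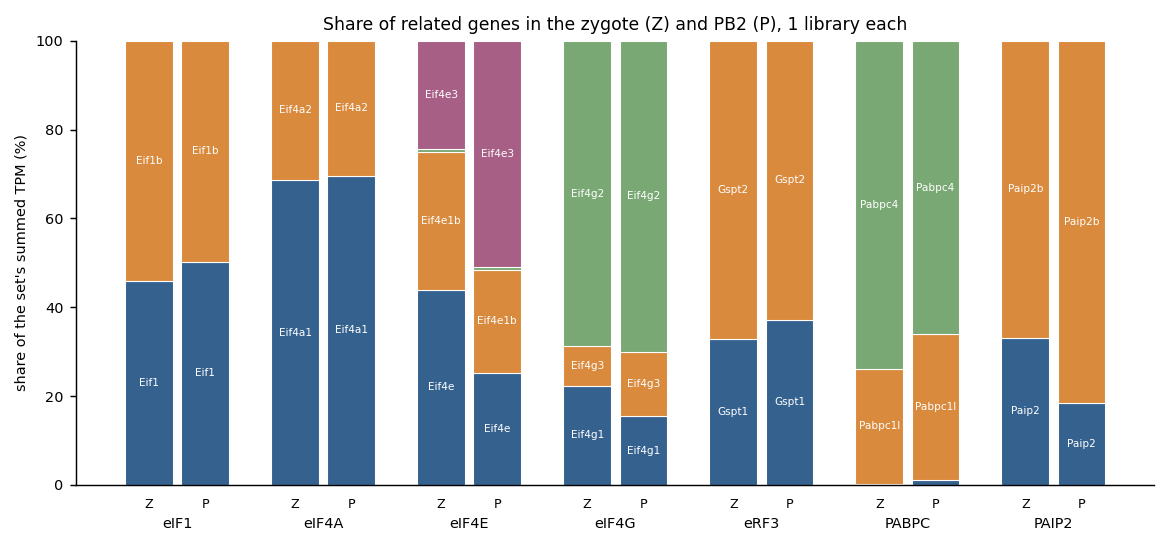
Share of each gene in the summed TPM of its set of related genes, in percent, for the zygote (Z) and PB2 (P), with 1 library each. In the eIF4E set the Eif4e3 part grows from 24.3% to 50.8%, in the PAIP2 set the Paip2b part grows from 66.9% to 81.5%, and the eIF1, eIF4A and eRF3 sets change little. The thin band in the eIF4E bars is Eif4e2, and the thin band at the foot of the PABPC bars is Pabpc1.

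In elongation, the eEF1 genes and the eEF2 genes lay on opposite sides. All 4 eEF1 genes were below 0. Eef1a1, the carrier of aminoacyl-tRNA, had 116.3 TPM in the zygote and 108.3 in PB2. Of the subunits that exchange its nucleotide, Eef1b2 had 79.7 and 55.0 TPM, and Eef1d had 26.2 and 22.4 TPM. Eef1g, the structural gamma subunit, was down from 7.4 TPM (zygote) to 2.2 TPM (PB2), a ratio of 3.36 that rounding leaves between 3.27 and 3.46. The 4 summed to 229.6 and 187.9 TPM. Eef1e1, named as an elongation factor but known as a scaffold of the aminoacyl-tRNA synthetase complex, had 259.1 TPM in the zygote against 127.3 in PB2, at the 2-fold limit with a log2 ratio of -1.02. Eef1akmt2, a methyltransferase of eEF1A, had 3.5 and 0.5 TPM, and Eef2kmt, the methyltransferase of eEF2, had 1.7 and 1.3 TPM. Values this low are coarse, and the ratio of 7 for Eef1akmt2 could lie anywhere from 6.27 to 7.89 through rounding alone.

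Eef2 and its inhibitory kinase were both higher in PB2. Eef2k showed the largest log2 ratio of the 71 genes at the pseudocount of 1 TPM, while at smaller pseudocounts the barely detected Pabpc1 exceeded it. The kinase gene had 21.1 TPM in the zygote against 89.7 in PB2, a log2 ratio of 2.04. The product of Eef2k phosphorylates eEF2 and thereby halts translocation. Eef2 itself had 37.7 TPM in the zygote and 96.6 in PB2, a log2 ratio of 1.33. The kinase transcript stood below that of its substrate in the zygote, by a factor of 1.79, and almost level with it in PB2, by a factor of 1.08. The values differ in how far they hold when the GC trend is removed, since Eef2k kept a log2 ratio of 1.71 while Eef2, with a GC content of 57.0%, kept 0.52.

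The release factors were close to even. Etf1 (eRF1), which reads the stop codon, had 50.9 TPM in the zygote against 35.3 in PB2. Its partner eRF3 comes from Gspt1, with 23.2 and 35.8 TPM, and from the X-linked Gspt2, with 47.4 and 60.4 TPM. Gspt2 was the larger of the pair in both, at 67.1% of their sum in the zygote and 62.8% in PB2.

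Of the proteins that coat the poly(A) tail, Pabpc4 was the most abundant, with 107.9 TPM in the zygote against 161.2 in PB2. Pabpc1l (ePAB), the form known from oocytes and early embryos, had 37.9 and 79.9 TPM, a log2 ratio of 1.06 that came to 0.40 with the GC trend removed. Pabpc1, the common form of somatic cells, was nearly absent, at 0.5 TPM in the zygote and 3.0 in PB2. All 3 were higher in PB2, and their sum was 146.3 TPM in the zygote against 244.1 in PB2, a ratio of 1.67. Pabpn1l, a nuclear-type poly(A)-binding protein known from oocytes and needed there for decay of maternal mRNA, lay the other way with 435.3 and 327.7 TPM.

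The proteins that bind PABP were also lower in sum, at 1475.8 TPM in the zygote against 1084.8 in PB2. Paip1, which links PABP to eIF4A and eIF3 and favors translation, was the second most abundant member in the zygote at 1195.3 TPM and had 811.1 TPM in PB2. The inhibitors of PABP lay on opposite sides of 0, though with the length trend removed Paip2b was below 0 as well. Paip2 had 92.9 TPM in the zygote and 50.5 in PB2, while Paip2b had 187.6 and 223.2 TPM. Paip2b was therefore 66.9% of the pair in the zygote and 81.5% in PB2, on a sum that differed little.

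Stored mRNAs of the egg are held with short tails and are lengthened when a U-rich element near the end of the 3′ UTR, the cytoplasmic polyadenylation element, acts with the poly(A) signal. The last 100 bases of each reference 3′ UTR were therefore searched for TTTTAT or TTTTAAT, and the last 40 bases for AATAAA or ATTAAA, in the direction of the transcript only. Of the 67 members with a 3′ UTR of at least 100 bases, 8 (11.9%) held the U-rich letters, beside 20.1% of 10101 genes, and 52 (77.6%) held a poly(A) signal, beside 77.9%. Over all genes, 18.9% of those with the U-rich letters and 19.5% of those without passed 2-fold toward PB2. The 8 members were Eef1a1, Eef1akmt2, Eef2kmt, Eif1a, Eif1ax, Eif3j2, Eif4e3 and Pabpc4, with 1 of them past 2-fold toward PB2 (Eif4e3) and 1 toward the zygote (Eef1akmt2). A match describes letters and no site in use, and where these transcripts end in the libraries was not measured.

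The U-rich letters, in capitals, are shown for 4 of the 8: Eif4e3, the only one past 2-fold toward PB2, and the abundant Pabpc4, Eef1a1 and Eif1ax. They lie in the 3′ UTR of the longest coding transcript, in GRCm38 at chr6:99625215-99625244 on the minus strand, chr4:123298832-123298861 on the plus strand, chr9:78478506-78478535 on the minus strand and chrX:159389887-159389916 on the plus strand.
Eif4e3: attttgagaaaaTTTTATttttgaacttta
Pabpc4: atttgatgccagTTTTATgttacaatcttg
Eef1a1: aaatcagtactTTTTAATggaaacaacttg
Eif1ax: attcagtggatgTTTTATgctgcacaaata

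Among the genes past 2-fold that held a poly(A) signal without the U-rich letters, 5 are shown as examples, with the signal in capitals. The 5 are the elongation pair, the most abundant eIF2 kinase, the oocyte form of PABP and 1 gene past 2-fold toward the zygote. They are Eef2k (chr7:120907417-120907446, plus strand), Eef2 (chr10:81182462-81182491, plus strand), Eif2ak1 (chr5:143904204-143904233, plus strand), Pabpc1l (chr2:164050505-164050534, plus strand) and Eef1e1 (chr13:38644215-38644244, minus strand), all in GRCm38.
Eef2k: cagtgcacataaAATAAAatagaatcaaaa
Eef2: aatcattggagtAATAAActacagtggttg
Eif2ak1: tgtggaacaatgAATAAAtaataccctgct
Pabpc1l: tttgctttatatATTAAAaaatgctgcaaa
Eef1e1: caatggaaatgtAATAAAtgagaattgtat

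The log2 ratio of a gene moved with the base composition of its transcript, and this touches several of the values above. Across the 10606 genes with a reference transcript the Spearman correlation of the log2 ratio with GC content was 0.444, and across the 71 members it was 0.251, both as descriptions of genes from the same 2 libraries. Genes were split by GC content into 3 equal parts. In the part with the highest GC content, 37.6% of all genes passed 2-fold toward PB2, and 2 of the 23 members there were (Eef2 and Pabpc1l). The median log2 ratio of those 23 was 0.07, while that of all genes of that range was 0.74. In the middle part by GC content, 14.2% of all genes passed 2-fold toward PB2 and 6.7% toward the zygote. Of the 23 members there, 6 and 1 did, and their median log2 ratio was 0.34 beside 0.22 for all genes. In the lowest part, 4.89% of all genes passed 2-fold toward PB2 and 14.5% toward the zygote, and of the 25 members there 1 (Eif4e3) and 4 (Eef1akmt2, Eef1e1, Eif2ak2 and Eif2s1) were. For length the correlation was 0.395 over the members and 0.170 over all genes. None of the 27 members in the shortest of 3 equal parts by length was 2-fold higher in PB2, beside 15.4% of all genes. In the middle part 4 of 29 members were, beside 23.1%, and in the longest part 5 of 15, beside 18.2%. The part of GC content and length in these differences was not tested.

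**Figure D4:**
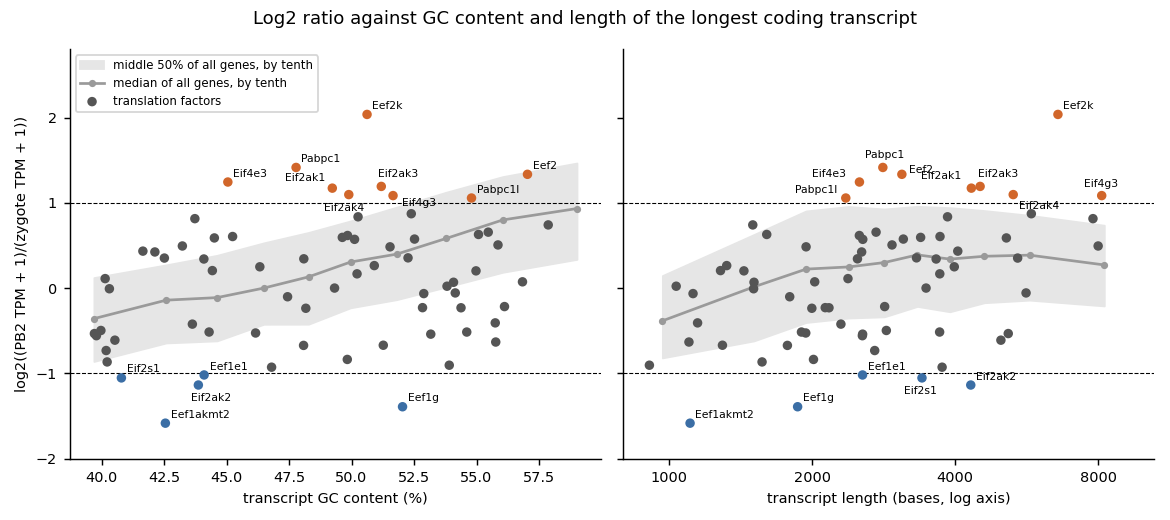
Log2 ratio of PB2 to zygote against the GC content (left, percent) and the length (right, bases, log axis) of the longest coding transcript, for the 71 genes (points, orange and blue past 2-fold). The grey line and band are the median and the middle 50% of all genes in each of 10 equal bins of the property. In the left panel many GC-rich factors lie under the band, and Eef2k, Eif4e3 and Pabpc1 lie furthest above it.

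With the GC trend removed, 3 members stayed past 2-fold toward PB2, namely Eef2k, Eif4e3 and Pabpc1, beside 9.08% of all genes, and 10 members passed it toward the zygote, beside 11% of all genes. The latter were Eef1akmt2, Eef1g, Eif2ak2, Eif2b1, Eif2b5, Eif3d, Eif3g, Eif3h, Eif3k and Pabpn1l. The sign of the log2 ratio turned below 0 for 11 members under this setting and above 0 for Eif3e. Centring on the median of all genes turned 7 members below 0: Eif1b, Eif2b4, Eif3j2, Eif3m, Eif4a3, Eif4enif1 and Eif5a. Of these, Eif1b, Eif4a3, Eif4enif1 and Eif5a reached 100 TPM, a level at which the median of all genes was 0.02 rather than 0.21.

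The summed ratio of the factors, 0.968, was close to the 0.969 of all genes. It lay between those of the ribosomal proteins and the aminoacyl-tRNA synthetases. The 78 cytosolic ribosomal protein genes had a summed ratio of 0.895 and a median log2 ratio of -0.11. Of the 77 compared, 2 (2.6%) passed 2-fold toward PB2 and 4 (5.19%) toward the zygote, beside 18.9% and 8.09% of all genes. The 19 aminoacyl-tRNA synthetase genes had a summed ratio of 1.07 and a median log2 ratio of -0.06. By median, the factors at 0.11 lay above both of these lists. Among the 18 compared, 1 (5.56%) passed 2-fold toward PB2 and 0 toward the zygote. By level, 6 of the 9 factors higher in PB2 had 10 to 100 TPM in the higher library, where 31 members lie and where 21.2% of all genes passed 2-fold that way. Of the 25 members that reached 100 TPM, Eif4e3 was the 1 that passed it toward PB2, and Eef1e1 and Eif2s1 were the 2 that passed it toward the zygote, beside 18.3% and 11.7% of all genes at that level.

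Other genes of translation and its control, mitochondrial translation factors among them, were listed by function. Of the 62 compared, 6 (9.68%) passed 2-fold toward PB2 and 4 (6.45%) toward the zygote, beside 18.9% and 8.09% of all genes. Their median log2 ratio was 0.22. With the GC trend removed, 1 of the 62 passed 2-fold toward PB2. The selenocysteine pathway, which inserts this amino acid at UGA codons, had 2 of its 3 genes among the 6. Eefsec, its own elongation factor, had 45.0 TPM in the zygote against 148.4 in PB2, and Secisbp2, which binds the element that recruits it, had 19.6 and 43.7 TPM. Akt1s1 (PRAS40), an inhibitor of mTOR complex 1, had 4.7 TPM in the zygote against 25.7 in PB2, while the median of the 13 mTOR genes was 0.02. Gtpbp1, a GTPase related to the elongation factors, had 14.6 and 47.4 TPM. Mknk2, a kinase of eIF4E, and Gcn1l1, the partner of GCN2, were the others, both under 5 TPM in either library. Toward the zygote lay Abce1, the ribosome recycling factor, with 14.3 and 6.5 TPM, and Mtrf1, a mitochondrial release factor, with 26.6 and 11.8 TPM. Mcts1, a ribosome recycling factor, had 5.1 TPM in the zygote and is listed at 0 in PB2, and Dph5, an enzyme of the diphthamide that eEF2 carries, had 2.0 and 0.4 TPM.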

How the data were processed

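RNA-seq values of 1 PB2 library and 1 zygote library were used. Per the submitters' processing notes and the methods, the authors used CASAVA, HISAT2 2.0.4, HTSeq 0.6.1p1 and DESeq2 1.18.1. The notes name both GRCm38 and OryCun2.0, a rabbit assembly, while the gene identifiers are those of mouse. The deposited values are TPM rounded to 1 decimal, and how they were made from counts, and how reads shared by similar genes were treated, is not given in the sources used here. For Eif1 and Eif1b, Eif4a1 and Eif4a2, Gspt1 and Gspt2, Eif3j1 and Eif3j2, and Eef1a1 with its pseudogenes, the split of reads is uncertain. TPM keeps no depth, so no counting interval is given.

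The log2 ratio used a pseudocount of 1 TPM, over genes with at least 1 TPM in either library, which all 71 members passed. Symbols were matched to the genes by name, and groups by role were written by hand. Transcript GC content, length and 3′ UTRs came from the longest protein-coding transcript in GENCODE M21 (GRCm38), found for all 71 members. Trends on GC content and on log10 length were fitted by lowess (span 0.3) and subtracted. Alternatives were pseudocounts of 0.1 and 0.01, no filter, a filter at 5 TPM, zygote values scaled by 1.057 (the median of the ratios of 4973 genes that reached 10 TPM in both), removal of mitochondrially encoded and the 50 most abundant genes, centring, and limits of 1.5-fold and 4-fold. The members, lists and alternatives were chosen with earlier results of these data known. The rule for named genes took members past 2-fold that reached 10 TPM in one of the libraries, the most abundant member of each role, the nearest to 2-fold on either side, all members of sets of related genes and, of the other translation genes, those past 2-fold that reached 10 TPM. The remaining members and genes given above were named after their values were seen. Tables were handled with pandas 2.3.3 and numpy 2.4.6 under Python 3.11.15, correlations with scipy 1.17.1, trends with statsmodels 0.14.6 and plots with matplotlib 3.10.9.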

Additional observations from a re-analysis of the deposited data

How the results depend on the processing

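With 1 library of each kind, no replicate could be left out, depth is unknown, and every value describes these 2 libraries only. No paired analysis was possible because each group has 1 library. The number of members at least 2-fold higher in PB2, 9, was 4 after centring on the median of all genes, 3 with the GC trend removed and 2 with the length trend removed, and it was 19 at a limit of 1.5-fold and 1 at 4-fold. The number higher in the zygote, 5, was 3 among genes of at least 5 TPM, 9 after centring, 10 with the GC trend removed and 8 with the length trend removed, and it was 14 at 1.5-fold and 0 at 4-fold. Of all genes, 13%, 9.08% and 12.1% passed 2-fold toward PB2 after centring and with the GC and length trends removed, in that order. Toward the zygote the shares were 12.1%, 11% and 11.7%, and 8.39% among genes of at least 5 TPM. Both pseudocounts and removal of the most abundant genes left the same 9 and 5 genes in place. The shares of all genes toward PB2 and toward the zygote were 24.6% and 10.3% at a pseudocount of 0.1. They were 24.7% and 10.4% at 0.01, and 19.8% and 9.09% with the most abundant genes removed. Dropping the filter could not change the 9 and 5 members, because all members passed it. Scaling the zygote values gave 8 and 6, with Pabpc1l lost and Eif2b3 gained, beside 16.7% and 9.22% of all genes. Of the other translation genes, the 6 higher in PB2 became 1 with the GC trend removed, 3 with the length trend removed, 18 at 1.5-fold and 1 at 4-fold. The 4 higher in the zygote became 8 after centring, 7 with the length trend removed, 10 at 1.5-fold and 1 at 4-fold. The cause of these changes was not tested, apart from the limits of 1.5-fold and 4-fold, which change the counts by construction. No share of all genes is given at those limits, so the counts there have no background beside them. The median of the members ranged from -0.16 with the GC trend removed to 0.20 with the filter at 5 TPM. Of 410 values for 46 single genes under these settings, 15 moved by more than 0.5 on the log2 scale and 395 did not. Many of the 395 could not have moved that far. The filters leave a gene's ratio as it is, centring shifts every gene by 0.21, and scaling by 1.057 shifts it by less. All 15 came from the pseudocounts and the GC trend. None of the genes past 2-fold changed direction. Ratios of genes near 1 TPM depend on the pseudocount, and the log2 ratio of Pabpc1 was 1.42, 2.37 and 2.56 with pseudocounts of 1, 0.1 and 0.01.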
